A study of Mus musculus with 36 samples.

Results

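The 40 interferon-stimulated genes (ISGs) described here are protein-coding genes that cells switch on when they sense type I or type II interferon, and they were followed in epididymal white adipose tissue (eWAT), the fat pad beside the epididymis, of 36 mice. The genes were chosen by name and by their known induction by interferon, with no threshold on a measured value. All 40 were found among the 24750 genes of the deposited expression table, all 40 passed the filter on low values that left 17852 genes for testing, and none was at 0 in any library. By role they were 3 factors of interferon signalling (Irf7, Irf9 and Stat2), 4 cytosolic sensors of nucleic acid (Ifih1, Ddx58, Dhx58 and Zbp1), 2 genes of the ISG15 conjugation system (Isg15 and Usp18), 13 antiviral effectors (Ifit1, Ifit2, Ifit3, Oas1a, Oas2, Oas3, Oasl1, Oasl2, Mx1, Mx2, Rsad2, Cmpk2 and Bst2), 8 other induced genes (Ifi44, Ifi27, Ifi35, Xaf1, Parp14, Rtp4, Trim30a and Lgals3bp), 7 interferon-inducible GTPases (Ifi47, Igtp, Irgm1, Irgm2, Gbp2, Gbp3 and Gbp7) and 3 genes of antigen processing (Tap1, Psmb8 and Psmb9).

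The study asked how the chemokine CCL19, made by fat cells, acts on adipose inflammation and on periodontitis under different diets. RNA was sequenced from the eWAT of male C57BL/6 wild-type (WT) mice and of CCL19-KI mice, in which murine Ccl19 was knocked into the Adipoq locus with CRISPR so that adipocytes express it while Adipoq itself stays intact. Mice received a normal diet (ND), a 40% high-fat diet (40% HFD) or a 60% high-fat diet (60% HFD) for 10 weeks, and in the ligature groups silk was tied around the upper second molars at 14 weeks of age, 2 weeks before tissue was taken. Each of the 12 combinations of genotype, diet and ligature held 3 mice, and lymph nodes were removed from the fat pad before RNA extraction. The CCL19-KI mice were homozygous and were bred apart from the WT mice, so that genotype and colony cannot be told apart. The tissue was sequenced in bulk, so that fewer cells of a type and less RNA per cell cannot be told apart in any value below.

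Interferons signal through paired cell-surface receptors and JAK kinases. Type I interferon acts through a complex that holds STAT2 and IRF9 and binds the interferon-stimulated response element (ISRE), whereas type II interferon, the product of T and NK cells, acts through the gamma-activated site (GAS). The induced proteins sense viral RNA, degrade or trap it, restrict budding particles, guard vacuoles or load peptides for antigen presentation, and some of them, such as USP18, switch the signal off again. In adipose tissue, macrophages, lymphocytes, vascular cells and adipocytes all respond to interferon.

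The elements through which interferon acts were looked for in the letters around the starts of the genes. RefSeq promoter sequence (build GRCm38.p6, 250 bases before to 50 bases after the start) was matched by symbol for 31 of the 40 genes. A gene counted once if any of its promoter entries matched. The ISRE core GAAANNGAAA, read on both strands, was present in 17 of the 31 (54.8%), against 1079 of all 27025 genes with promoter sequence (3.99%). The GAS sequence TTCNNNGAA was present in 8 of the 31 (25.8%), against 2582 of the 27025 (9.55%). Either of the motifs was held by 20 of the 31 (64.5%), against 12.9% of the 27025 genes. The following 140-base stretches, 5′ to 3′ on the strand of each gene, show the range from a triple ISRE to no match, and cover genes that differ in the comparisons below; capitals mark ISRE and GAS matches, which may overlap.
Isg15, chr4:156200819-156200958, minus strand: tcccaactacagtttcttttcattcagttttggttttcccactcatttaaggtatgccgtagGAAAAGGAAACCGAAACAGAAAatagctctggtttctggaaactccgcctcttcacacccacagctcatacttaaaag
Ifit1, chr19:34640749-34640888, plus strand: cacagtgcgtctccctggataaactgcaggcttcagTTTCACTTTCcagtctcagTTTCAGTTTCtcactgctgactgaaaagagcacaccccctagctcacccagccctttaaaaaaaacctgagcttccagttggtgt
Bst2, chr8:71537473-71537612, minus strand: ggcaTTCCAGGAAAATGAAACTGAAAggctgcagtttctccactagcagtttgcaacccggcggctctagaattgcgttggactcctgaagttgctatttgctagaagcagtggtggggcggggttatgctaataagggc
Irgm2, chr11:58214837-58214976, plus strand: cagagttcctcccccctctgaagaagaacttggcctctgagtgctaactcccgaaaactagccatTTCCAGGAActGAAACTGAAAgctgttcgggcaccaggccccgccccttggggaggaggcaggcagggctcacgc
Igtp, chr11:58199416-58199555, plus strand: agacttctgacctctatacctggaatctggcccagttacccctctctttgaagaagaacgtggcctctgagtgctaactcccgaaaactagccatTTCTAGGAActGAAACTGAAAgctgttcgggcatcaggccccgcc
Oasl1, chr5:114923100-114923239, plus strand: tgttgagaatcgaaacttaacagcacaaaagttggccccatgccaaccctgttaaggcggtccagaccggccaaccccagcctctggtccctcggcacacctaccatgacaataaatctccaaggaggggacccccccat
Lgals3bp, chr11:118401960-118402099, minus strand: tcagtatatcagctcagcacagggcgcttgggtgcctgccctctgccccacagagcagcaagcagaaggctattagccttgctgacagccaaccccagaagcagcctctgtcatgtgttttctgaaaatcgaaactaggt
Isg15 held 3 overlapping ISRE cores and Ifit1 held 2 on the opposite strand. In Bst2 a GAS match ran into 2 ISRE cores, and the neighbouring GTPase genes Igtp and Irgm2 carried a GAS match followed by an ISRE core in nearly the same surroundings. In these windows of Oasl1 and Lgals3bp neither set of letters was found, which says nothing about sequence elsewhere. Mx1, Mx2, Usp18, Dhx58, Zbp1, Oas2, Ifi27, Parp14 and Rtp4 were not matched.

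Libraries held 11962228 to 21581595 reads (median 15573273), and the ISGs rested on 5 reads (Mx1) to 7234 reads (Lgals3bp) in a library. The genotype check came out against the label in 2 libraries. In the library labelled ND WT replicate 2, Ccl19 was 19.2 normalized CPM (counts relative to library size after edgeR scaling) and Gm2564, a transcript that marked the knock-in libraries, was 41.9, while the other WT libraries had 0.507 to 4.51 and 0 to 0.16. In the library labelled 60% HFD CCL19-KI replicate 3, Ccl19 was 0.687 and Gm2564 was 0, while the other CCL19-KI libraries had 5.57 to 34.7 and 11.7 to 108. These were also the libraries with the highest summed markers of epididymal epithelium (5756 and 9573, and 0 to 3723 in the others). Each comparison below was repeated without both. The tissue label was checked with 8 adipocyte markers, which summed to 4749 to 27667 normalized CPM, with none at 0. Hepatocyte markers (8 genes, among them Alb) were present in every library and summed to 129.6 to 38729. They differed between groups, with a hepatocyte score (mean log2 of the 8 genes) of 1.87 to 2.10 in ND WT and 2.22 to 6.34 in 60% HFD CCL19-KI mice but 9.08 to 11.2 in 60% HFD WT mice, so the called genes below are also given with this score as a covariate where that ends the call. Where the scores of 2 compared groups did not overlap, that fit could hardly tell score from group, and a lost call there decides nothing.

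The ISG level of a library, taken as the mean log2(normalized CPM + 1) of the 40 genes, lay in a narrow band in most groups. The highest group mean was that of 40% HFD WT mice without ligature, at 4.34 ± 0.14 (SD, n = 3), followed by 60% HFD WT mice without ligature at 4.24 ± 0.103. The other 10 group means lay between 3.87 ± 0.171 in 40% HFD WT mice with ligature and 4.08 ± 0.115 in ND CCL19-KI mice without ligature. By gene, 40% HFD WT mice had the highest group mean for 19 of the 40 ISGs, ND WT mice with ligature for 8 and no other group for more than 3. ND CCL19-KI mice with ligature had the lowest group mean for 9 of the 40.

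**Figure D1:**
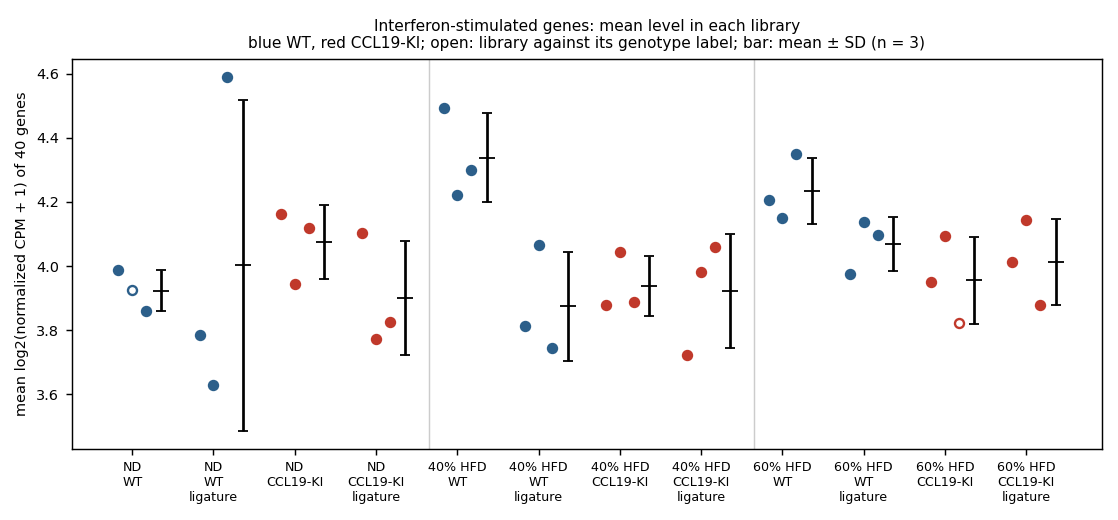
Mean log2(normalized CPM + 1) of the 40 ISGs in each of the 36 libraries by group, with the mean ± SD of 3 mice beside the points; WT is blue, CCL19-KI red, and open points are the 2 libraries against their genotype label. The 3 libraries of 40% HFD WT mice, from 4.22 to 4.49, lie above every library of the 40% HFD WT ligature and both 40% HFD CCL19-KI groups, and ND WT ligature mice spread from 3.63 to 4.59.

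The wide spread among ND WT mice with ligature came from 1 mouse. Replicate 3 of that group had the highest ISG level of all 36 libraries (4.59), while its mates at 3.79 and 3.63 included the lowest of all. It lay above both mates in 38 of the 40 ISGs. Above the mean of its mates lay 38 of the 40 ISGs and 51.8% of all genes. The median difference from that mean was 0.73 on the log2 scale (0.018 over all genes). At least 1 log2 unit above that mean were 11 of the 40 ISGs, against 3.02% of all genes. The GTPases of the immunity-related and guanylate-binding families, which coat and break vacuoles that hold pathogens, stood out most. Igtp was 14.0, 11.0 and 82.3 normalized CPM in replicates 1, 2 and 3, Irgm2 was 26.7, 25.1 and 110, and Gbp2 was 58.8, 52.2 and 196. Gbp3 was 13.3, 12.0 and 60.0, Ifi47 was 7.72, 7.14 and 32.4, and Zbp1, a sensor of Z-form nucleic acid, was 4.76, 3.65 and 18.5. In contrast, Oasl1 was 2.00, 2.33 and 2.09 and Ifit2 was 25.4, 21.4 and 22.8, so that replicate 3 lay between its mates for those 2 genes. Its hepatocyte score was 6.65, below the 9.19 and 9.50 of its mates, and what set this mouse apart was not tested.

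**Figure D2:**
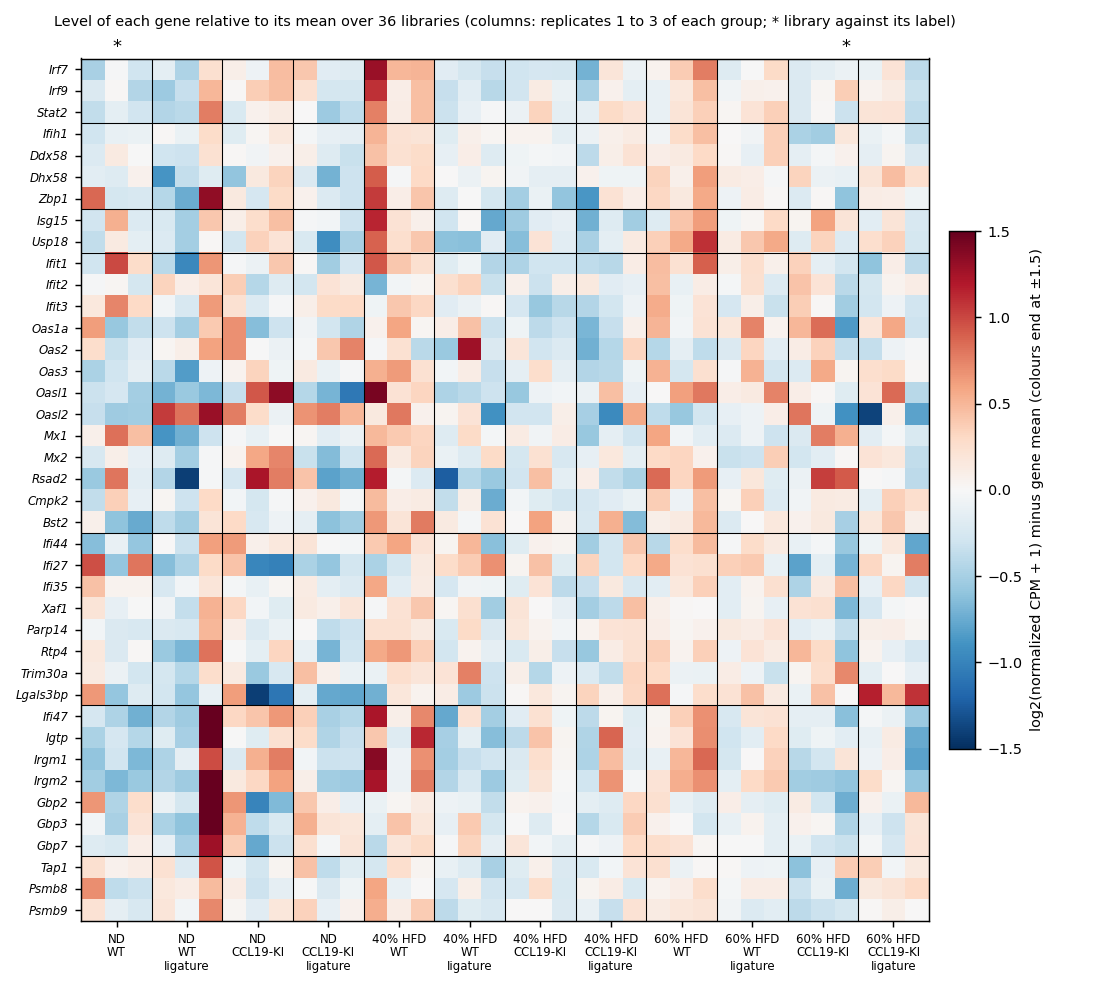
Each ISG in each library as log2(normalized CPM + 1) minus the mean of that gene over the 36 libraries, with genes in rows by role and the 3 replicates of each group in columns; an asterisk marks a library against its label and colours end at ±1.5. Replicate 3 of ND WT ligature is high for 38 of 40 genes within its group, with Igtp, Gbp3, Irgm2, Ifi47 and Zbp1 farthest above the mean of their mates, and replicate 1 of 40% HFD WT has the highest value of all 36 libraries for 11 genes.

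The ISGs varied together within groups, but not all to the same degree. Over the 780 pairs of ISGs the median Pearson correlation of deviations from the group means was 0.318 across the 36 libraries, and 80.9% of the pairs were positive. These are descriptions, since the libraries share depth and scaling, and no like values were taken over pairs of all genes. Igtp, Irgm2, Gbp3 and Gbp7 were far above their mates in replicate 3 of ND WT ligature mice. The correlations were not taken without that library. The tightest pairs were Irf9 with Irgm1 (0.932), Ifi47 with Irgm2 (0.919), Gbp3 with Gbp7 (0.917) and Igtp with Irgm2 (0.904), and of these Gbp3 with Gbp7 and Igtp with Irgm2 share sequence. Against the mean of the other 39 ISGs, Ifi47 (0.896), Zbp1 (0.871) and Parp14 (0.853), an ADP-ribosyltransferase, followed the group of genes most closely. At the other end stood Lgals3bp (0.115), a secreted galectin-3-binding glycoprotein, and Ifit2 (-0.051), which binds RNA together with other IFIT proteins. Outside the list, the genes whose levels ran closest to the ISG level were Herc6, BC023105, Parp12, Gm12250, Ube2l6, Bcl3, Gm4841 and Rnf213, with r from 0.75 for Herc6, an ISG15 ligase in mice, to 0.66 for Rnf213.

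Between CCL19-KI and WT mice, averaged over the 6 settings of diet and ligature, none of the 40 ISGs differed at an adjusted p below 0.05 in limma, and none in edgeR's quasi-likelihood test on the recovered reads, while 5 of 40 had an unadjusted p below 0.05 (16.9% of all genes did). Over all genes 0.459% were called. The averaged differences ran from -0.35 to 0.15 on the log2 scale, 36 of 40 were negative (54.3% of all genes were), the median was -0.10 (-0.02 over all genes), and the typical 95% interval reached 0.22 to either side. The sign was not the same in every setting. Of the 40 ISGs, 27 were higher in CCL19-KI mice on ND without ligature (median 0.074, -0.095 over all genes) and 21 on 40% HFD with ligature, while 28 were lower on ND with ligature, 36 and 35 on 40% and 60% HFD without and 25 on 60% HFD with ligature. The 5 largest averaged differences were Ifit1 at -0.35 ± 0.13 (SE, adjusted p = 0.17), Ifi27 at -0.31, Zbp1 at -0.30, Usp18 at -0.24 and Ifit3 at -0.24. Ifit1, which binds viral RNA that lacks a host cap mark, was 7.16 at the lowest, 9.30 at the median and 15.4 at the highest in CCL19-KI libraries and 5.32, 13.5 and 23.6 in WT libraries. The CCL19-KI range thus lay within the WT range, with a lower median. Without the 2 libraries against their label 1 ISG passed, the RNA sensor Ifih1, which was lower in CCL19-KI mice by -0.20 (adjusted p = 0.041 in limma), in a fit that called 7.35% of all genes.

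Mice without ligature were then taken alone. Under 40% HFD the 40 ISGs had a median difference of -0.41 between CCL19-KI and WT mice (-0.058 over all genes), 36 of 40 were negative, and in 16 of 40 every CCL19-KI library lay below every WT library, which held for 6.74% of all genes. The reverse held for 0 of 40 ISGs and for 7.49% of all genes. None of the 40 passed the adjusted threshold in limma or edgeR, and 0.0056% of all genes were called. At an unadjusted p below 0.05 there were 13 of 40 (6.64% of all genes). Irf7, the master factor of type I interferon production, was 50.3, 28.6 and 28.9 in WT and 16.1, 16.7 and 16.5 in CCL19-KI mice. Usp18, which removes ISG15 and damps the receptor, was 10.1, 6.18 and 6.97 against 2.86, 5.95 and 4.39, and Isg15, the ubiquitin-like modifier itself, was 7.29, 3.35 and 2.96 against 1.58, 2.34 and 2.45. In each of these 3 genes the WT libraries were all higher than the CCL19-KI libraries. The 3 WT libraries ranked 2, 4 and 5 of the 36 in ISG level. Summed markers of lipid-associated macrophages did not overlap either (5516 to 7714 in CCL19-KI, 1074 to 5240 in WT mice). Nor did those of endothelial cells (185.7 to 207.7 against 102 to 163.7), while those of the other listed cell types overlapped. Their part in the ISG values was not tested. The comparisons below with 40% HFD WT mice without ligature use the same libraries, so the 3 results are not separate evidence.

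Under 60% HFD without ligature, where 16.8% of all genes were called, 2 of the 40 ISGs (5%) were lower in CCL19-KI than in WT mice. In 13 of 40 every CCL19-KI library lay below every WT library (16.3% of all genes) and in 0 of 40 above (14.4% of all genes). Ifih1 was 32.2, 31.3 and 51.0 in CCL19-KI and 43.7, 54.7 and 62.1 in WT mice, a difference of -0.50 ± 0.16 (SE, adjusted p = 0.036, limma). The highest value in CCL19-KI mice belonged to the library against its label, and without the 2 such libraries the difference was -0.72 (adjusted p = 0.0053). Psmb9, a subunit of the immunoproteasome that cuts peptides for antigen presentation, was 9.21, 9.73 and 10.1 against 13.6, 14.0 and 14.3, with no overlap (-0.49 ± 0.17, adjusted p = 0.045, limma). Without the 2 libraries its adjusted p was 0.059. Ifih1 lost its call without CCL19-KI replicate 1 or 2 or WT replicate 2 or 3 (adjusted p from 0.10 to 0.18). With the hepatocyte score as a covariate the values were -0.47 for Ifih1 (adjusted p = 0.20) and -0.52 for Psmb9 (adjusted p = 0.17), with 0.381% of all genes called. Hepatocyte scores of the 2 groups did not overlap (2.22 to 6.34 against 9.08 to 11.2), so that fit could hardly tell score from genotype. Summed markers of adipocytes (9352 to 11052 in CCL19-KI, 14032 to 17165 in WT) did not overlap either. The same held for smooth muscle (651 to 1217 against 165.6 to 370.4) and epididymal epithelium (291.7 to 9573 against 0.154 to 0.201). Markers of B cells, endothelial cells and kidney tubules were also apart. Their part in the ISG values was not tested.

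On ND without ligature 16.6% of all genes were called and 1 of the 40 ISGs (2.5%), Oasl1, an inhibitor of Irf7 translation, was higher in CCL19-KI mice. It was 2.88, 8.37 and 11.4 in CCL19-KI and 2.94, 3.12 and 2.45 in WT mice, so that 1 knock-in library lay within the WT range (1.01 ± 0.35, adjusted p = 0.047, limma). The hepatocyte score of these 3 CCL19-KI libraries was 5.49, 11.0 and 11.0, against 1.87 to 2.10 in ND WT mice. Without overlap, a fit with the score could hardly tell score from genotype here. With the score as a covariate the difference was -0.041 (adjusted p = 0.96), and without the 2 libraries it was 1.06 (adjusted p = 0.062). That fit called Ifi27 instead, lower in CCL19-KI mice by -1.41 (adjusted p = 0.0081), with 19.5% of all genes called. The call of Oasl1 held without any 1 of 16 of the 36 libraries and was lost without any of the others, and that of Psmb9 held without any 1 of 18. With ligature, 0 of 40 ISGs passed in limma or edgeR between the genotypes on any of the 3 diets, with 1, 0 and 0 of 40 at an unadjusted p below 0.05 on ND, 40% HFD and 60% HFD (12.6%, 3.18% and 2.48% of all genes were). Over all genes 1.03%, 0.0112% and 0.0112% were called there.

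**Figure D3:**
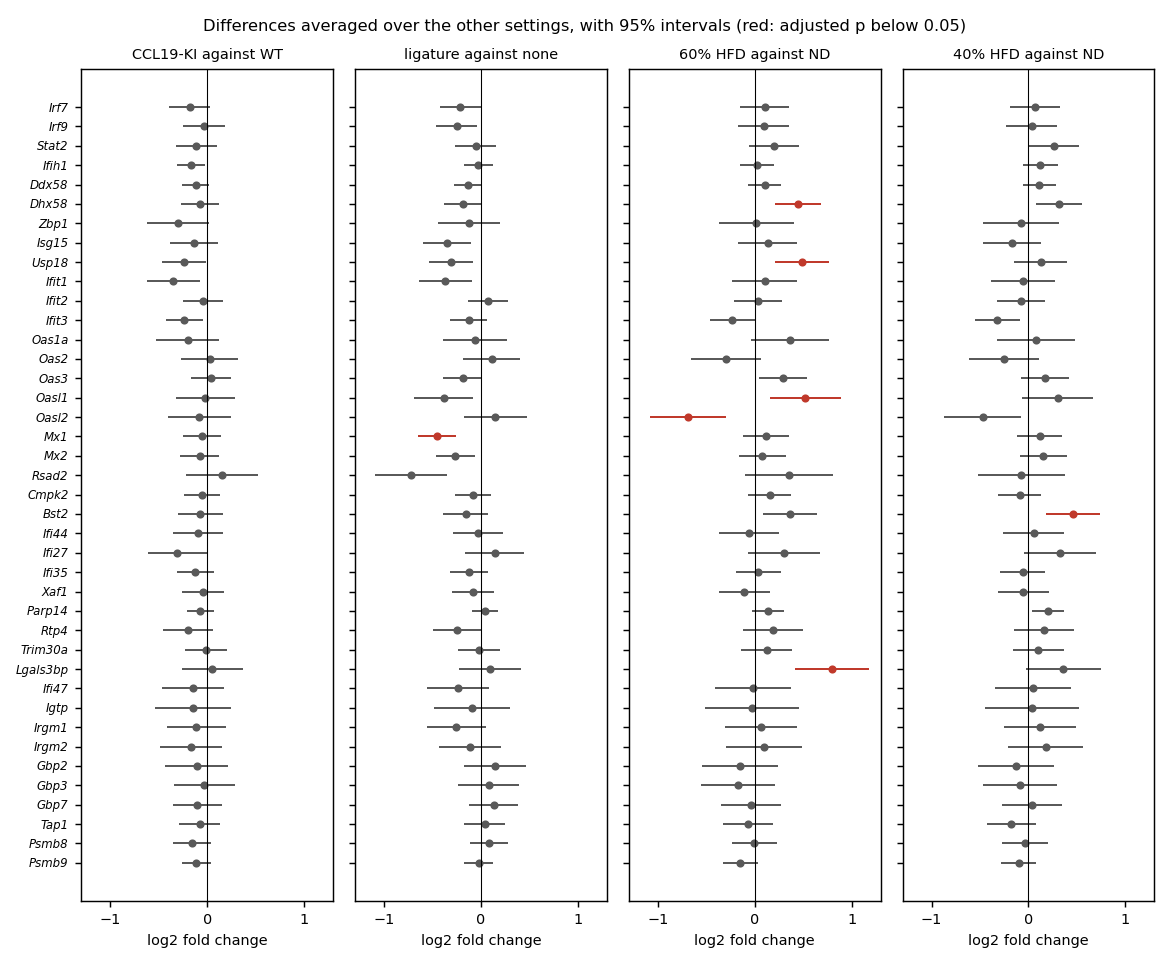
Log2 fold change of each ISG (points) with its 95% interval (lines) in 4 comparisons, each averaged over the other settings of the design; red marks an adjusted p below 0.05 in limma. Between CCL19-KI and WT mice 36 of 40 points lie left of 0 and none is red, Mx1 is red for ligature, 5 genes are red for 60% HFD and Bst2 is red for 40% HFD.

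Ligature around the molars was tested for an effect on eWAT, a tissue far from the gum. Averaged over the 6 settings of diet and genotype, 1 of the 40 ISGs (2.5%) was called and 0.325% of all genes were. Mx1, a dynamin-like GTPase that blocks the nuclear steps of influenza virus, was lower with ligature by -0.45 ± 0.09 on the log2 scale (adjusted p = 0.026, limma). Its values were 0.345 at the lowest, 1.20 at the median and 2.02 at the highest of the 18 libraries with ligature and 1.14, 1.70 and 3.40 of the 18 without, a pair of ranges that overlap. Mx1 rested on few reads. C57BL/6 mice, like most inbred strains, carry a disrupted Mx1 gene, so this level is that of a transcript from a defective allele. The adjusted p was 0.0502 without ND WT ligature replicate 1 and 0.0505 without 40% HFD CCL19-KI ligature replicate 1.

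The other ISGs with the largest ligature differences were lower with ligature but did not pass. Rsad2 (viperin), which makes a chain-terminating nucleotide against viral polymerases, was -0.72 ± 0.18 (adjusted p = 0.070, limma), with 2.23 at the lowest, 5.59 at the median and 10.5 at the highest of the ligature libraries and 4.84, 10.2 and 19.1 of the others. Oasl1 was -0.38, Ifit1 -0.37 and Isg15 -0.35. Of the 40 ISGs, 29 were negative (55.6% of all genes were) and 10 had an unadjusted p below 0.05 (16.2% of all genes did). With the hepatocyte score as a covariate Mx1 (-0.44), Rsad2 (-0.76), Usp18 (-0.35) and Oasl1 (-0.46) were called lower, in a fit that called 2.97% of all genes. The median hepatocyte score was 9.09 in the libraries with ligature and 9.09 in those without, but single settings were not balanced. In ND WT mice the score was 1.87 to 2.10 without and 6.65 to 9.50 with ligature. In 60% HFD CCL19-KI mice it was 2.22 to 6.34 without and 7.27 to 10.2 with ligature.

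Ligature was next read within single settings of diet and genotype. In ND WT mice, where 6.73% of all genes were called, 2 of 40 ISGs (5%) were. Oasl2, an OAS-like protein with ubiquitin-like domains, rose with ligature from 27.2, 23.6 and 23.8 to 73.2, 61.8 and 87.0 (1.52 ± 0.38, adjusted p = 0.019, limma). Mx1 fell from 1.63, 3.40 and 2.40 to 0.345, 0.507 and 1.01 (-1.09 ± 0.22, adjusted p = 0.0066). The libraries of the 2 groups did not overlap for either gene. Without the 2 libraries Oasl2 was 1.49 (adjusted p = 0.018), in a fit that called 1 ISG higher and 2 lower, and 10.8% of all genes. Hepatocyte scores of the 2 groups did not overlap (1.87 to 2.10 without, 6.65 to 9.50 with ligature). A fit with the score could hardly tell score from ligature here, and its kept, lost or new calls decide nothing. In that fit Oasl2 was 1.90 (adjusted p = 0.026) and Mx1 -0.94 (adjusted p = 0.052). It called 5.62% of all genes, and also Oasl1 as lower with ligature (-1.23, adjusted p = 0.038). Summed markers of mesothelial cells (327 to 502 without, 1083 to 1230 with ligature) did not overlap either. Markers of kidney tubules, smooth muscle and epididymal epithelium were also apart. Their part in the ISG values was not tested. Without ND WT ligature replicate 1 the adjusted p was 0.097 for Oasl2 and 0.071 for Mx1, and for Oasl2 it was 0.056 without ND WT ligature replicate 2 and 0.057 without ND WT replicate 1. In ND CCL19-KI mice 2 of 40 ISGs (5%) fell with ligature, where 1.37% of all genes were called. Oasl1 went from 2.88, 8.37 and 11.4 to 2.65, 2.03 and 1.35 (-1.37 ± 0.35, adjusted p = 0.047), and Mx2 from 1.84, 3.08 and 3.54 to 1.17, 0.737 and 1.23 (-0.88 ± 0.23, adjusted p = 0.049). Neither was called with the hepatocyte score as a covariate (adjusted p = 0.64 and 0.57), and that score was 5.49 to 11.0 without ligature and 2.33 to 8.77 with it. Either call held without any 1 of 11 of the 36 libraries and was lost without any of the others.

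In 40% HFD WT mice most ISGs had lower values with ligature, and none passed the test. The median difference was -0.43 (-0.022 over all genes), 35 of 40 were negative, and in 18 of 40 every ligature library lay below every library without, which held for 7.63% of all genes, while 1 of 40 lay wholly above (7.88% of all genes). In limma 0 of 40 were called, in edgeR 0 of 40, and 16 of 40 had an unadjusted p below 0.05 (15% of all genes did). No gene at all (0%) was called in this comparison. Irgm1, a GTPase of autophagy, was 87.4, 31.3 and 53.8 without and 23.0, 26.0 and 27.0 with ligature, and Irf9, the DNA-binding part of the type I complex, was 61.4, 30.2 and 38.7 without and 22.0, 25.0 and 20.9 with it. The groups did not overlap for either gene. The gene above was Ifi27, a small membrane protein, at 120, 139 and 182 without and 202, 216 and 268 with ligature. The summed adipocyte markers of these 2 groups did not overlap either, at 4749, 15394 and 14989 without and 20075, 24923 and 26647 with ligature. The same held for plasmacytoid dendritic cells (53.9 to 76.4 without, 76.8 to 122 with ligature) and skeletal muscle (19.8 to 56.4, 57.4 to 118). Markers of the other listed cell types overlapped. Their part in the ISG values was not tested. On 40% HFD in CCL19-KI mice and on 60% HFD in both genotypes 0 of 40 ISGs passed in limma or edgeR, with 0, 0 and 5 of 40 at an unadjusted p below 0.05 in 40% HFD CCL19-KI, 60% HFD WT and 60% HFD CCL19-KI mice (1.69%, 1.19% and 25.5% of all genes were). Over all genes 0%, 0% and 5.66% were called.

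The diets were compared next. Over pairwise comparisons, ISGs were called in 1.67% of tests for diet and 1.67% for ligature (4.14% and 2.29% over all genes). Averaged over genotype and ligature, 60% HFD against ND called 5 of the 40 ISGs (12.5%), while 18.6% of all genes were called. Of the ISGs 4 were higher (10.2% of all genes were) and 1 was lower (8.4%), and the count was also 5 in edgeR (18% of all genes). With the study's own cut (p up to 0.05 before adjustment, at least 1.5 times higher or lower) 2 of 40 passed, against 9.82% of all genes. The largest rise was that of Lgals3bp. It was 146 at the lowest, 201 at the median and 355 at the highest of 12 libraries on 60% HFD and 58.1, 117 and 247 of 12 on ND, and the difference was 0.80 ± 0.18 (95% interval 0.42 to 1.17, adjusted p = 0.0045, limma). The ranges overlapped, since ND WT replicate 1 and ND CCL19-KI replicate 1 had 247 and 244. Oasl2 fell, with 12.7, 30.1 and 61.3 on 60% HFD and 23.6, 52.9 and 87.0 on ND (-0.69 ± 0.19, 95% interval -1.07 to -0.30, adjusted p = 0.014).

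The other genes that rose on 60% HFD were 1 of the 4 sensors, 1 gene of ISG15 conjugation and 1 of the 13 antiviral effectors. Dhx58 (LGP2), an RNA-binding helicase that tunes the RNA sensors, was 6.87 at the lowest, 8.48 at the median and 12.1 at the highest on 60% HFD and 3.59, 6.35 and 9.73 on ND (0.45 ± 0.11, adjusted p = 0.0080, limma). Usp18 was 4.02, 6.61 and 11.8 against 2.15, 4.17 and 6.64 (0.49 ± 0.13, adjusted p = 0.012). Oasl1 was 2.68, 4.35 and 7.88 against 1.35, 2.55 and 11.4 (0.52 ± 0.17, adjusted p = 0.037). In each of the 3 genes the middle of the 60% HFD libraries was above the middle of ND and the ranges overlapped. All 5 ISGs were also called without the 2 libraries against their label, where 15% of all genes were. With the hepatocyte score as a covariate Lgals3bp alone was called (0.95, adjusted p = 0.0042), with 12.7% of all genes called, and Dhx58 (0.31, adjusted p = 0.10), Usp18 (0.27, adjusted p = 0.20), Oasl1 (0.16, adjusted p = 0.56) and Oasl2 (-0.55, adjusted p = 0.10) were not. The ISGs as a list hardly moved. Their median was 0.09 (0.01 over all genes) and 27 of 40 were positive, and with quantile normalization the median turned to -0.01 (-0.05 over all genes).

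**Figure D4:**
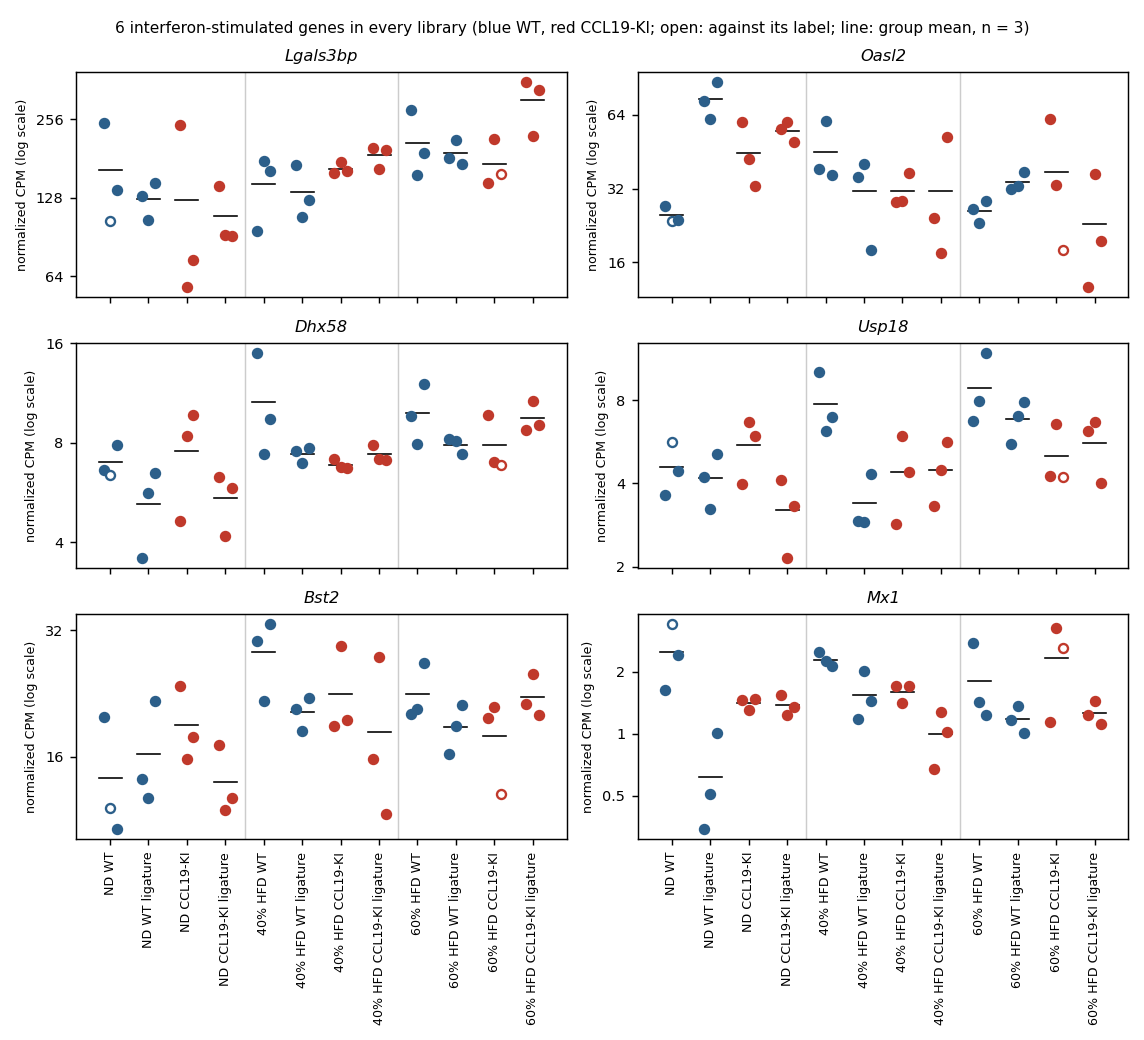
Normalized CPM on a log axis of Lgals3bp, Oasl2, Dhx58, Usp18, Bst2 and Mx1 in every library of the 12 groups, with a line at each group mean (n = 3); WT is blue, CCL19-KI red and open points are libraries against their label. Lgals3bp reaches 221 to 355 in the 60% HFD CCL19-KI ligature group, Oasl2 is 61.8 to 87.0 in ND WT mice with ligature against 23.6 to 27.2 without, and Mx1 is 0.345 to 1.01 in ND WT mice with ligature.

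By setting, the 60% HFD calls were found in 1 of 4. In CCL19-KI mice with ligature 3 of 40 ISGs (7.5%) were called against 12.8% of all genes. Lgals3bp rose from 142, 92.0 and 91.3 on ND to 355, 221 and 332 on 60% HFD (1.47 ± 0.37, adjusted p = 0.012, limma), and Dhx58 rose from 6.30, 4.17 and 5.82 to 8.73, 10.7 and 9.09 (0.72 ± 0.22, adjusted p = 0.035). Oasl2 fell from 56.2, 59.8 and 49.5 to 12.7, 36.6 and 19.5 (-1.35 ± 0.38, adjusted p = 0.022). The libraries of the 2 groups did not overlap for any of the 3 genes. All 3 calls were lost without the ligature libraries ND CCL19-KI replicate 2 or 60% HFD CCL19-KI replicate 1, Oasl2 and Dhx58 also without 60% HFD CCL19-KI replicate 3, and Dhx58 without ND CCL19-KI replicate 3 or 60% HFD CCL19-KI replicate 2, with adjusted p from 0.056 to 0.18. With the hepatocyte score as a covariate Lgals3bp was called (1.75, adjusted p = 0.011), Oasl2 (-1.09, adjusted p = 0.12) and Dhx58 (0.46, adjusted p = 0.25) were not, and Ifi27 was called higher (1.21, adjusted p = 0.047), with 8.24% of all genes called. In WT mice without ligature 0 of 40 passed in limma or edgeR and 8 of 40 had an unadjusted p below 0.05 (16.8% of all genes did), with 3.41% of all genes called. There 33 of 40 were positive with a median of 0.28 (-0.063 over all genes), and 12 of 40 had every 60% HFD library above every ND library, against 11.6% of all genes, and 0 of 40 lay wholly below, against 12.7%. In CCL19-KI mice without ligature and in WT mice with ligature 0 of 40 passed in either test, with 3 and 6 of 40 at an unadjusted p below 0.05 (31.2% and 18.6% of all genes were) and 10.2% and 2.57% of all genes called. In CCL19-KI mice without ligature 28 of 40 were negative, with a median of -0.10 (0.07 over all genes), and in WT mice with ligature 24 of 40 were positive, with a median of 0.07.

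Under 40% HFD, averaged over genotype and ligature, 1 of 40 ISGs (2.5%) was called against ND, while 9.21% of all genes were. With the study's cut 0 of 40 passed, against 7.81% of all genes. Bst2 (tetherin), which holds budding virus particles on the cell surface, was 11.7 at the lowest, 21.3 at the median and 33.0 at the highest on 40% HFD and 10.8, 15.0 and 23.5 on ND (0.46 ± 0.13, 95% interval 0.19 to 0.73, adjusted p = 0.029, limma). The ranges overlapped, and with the hepatocyte score as a covariate the difference was 0.28 (adjusted p = 0.40). The next largest differences did not pass and were -0.47 for Oasl2, 0.36 for Lgals3bp, 0.33 for Ifi27 and -0.32 for Ifit3. The call of Bst2 was lost when any 1 of 9 of the 36 libraries was left out, with adjusted p up to 0.065 without 40% HFD CCL19-KI replicate 2.

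The clearest rise under 40% HFD was in WT mice without ligature, where 5 of 40 ISGs (12.5%) were called against 6.03% of all genes, and 8 of 40 in edgeR (8.08% of all genes). All 5 were higher than on ND. Irf7 rose from 13.9, 19.6 and 16.0 on ND to 50.3, 28.6 and 28.9 (1.04 ± 0.24, adjusted p = 0.011, limma), and Bst2 from 19.9, 12.1 and 10.8 to 30.2, 21.8 and 33.0 (0.97 ± 0.26, adjusted p = 0.028). The paired GTPases followed, with Irgm1 going from 21.8, 27.1 and 20.4 to 87.4, 31.3 and 53.8 (1.17 ± 0.35, adjusted p = 0.045) and Irgm2 from 25.3, 22.7 and 24.6 to 87.4, 34.6 and 63.2 (1.22 ± 0.37, adjusted p = 0.048). Oas3, which makes the 2-5A messenger that activates RNase L, rose from 1.52, 1.84 and 2.20 to 4.06, 4.44 and 3.11 (0.77 ± 0.23, adjusted p = 0.047). In 18 of 40 ISGs, these 5 included, every 40% HFD library lay above every ND library, which held for 10.8% of all genes. In 0 of 40 every one lay below, against 9.91% of all genes. The median over the 40 was 0.38 (-0.058 over all genes) and 32 of 40 were positive.

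These 2 groups also differed in other transcripts. Hepatocyte scores were 9.10 to 11.1 in 40% HFD WT and 1.87 to 2.10 in ND WT mice, without overlap. A fit with the score as a covariate could therefore hardly tell score from diet, and its lost calls decide nothing. In that fit no gene of the whole table (0%) was called in this comparison. Irf7 was at 0.63 (adjusted p = 0.73) and Irgm2 at 0.80 (adjusted p = 0.78). Replicate 1 of 40% HFD WT, the highest of all 36 libraries for 11 ISGs, had the lowest summed adipocyte markers of the study (4749, against 15394 and 14989 in its mates). Without that library Irf7 was 0.78 (adjusted p = 0.15) and Irgm1 0.82 (adjusted p = 0.36). Leaving out any 1 of the 36 libraries kept the call of Irf7 in 34, Bst2 in 32, Oas3 in 19, Irgm1 in 18 and Irgm2 in 11. Without the 2 libraries against their label 4 ISGs were higher and 1 was lower, Irf7 among the higher (1.16, adjusted p = 0.016), where 8.07% of all genes were called. In the other 3 settings 0 of 40 ISGs passed in limma or edgeR for 40% HFD against ND, with 2 of 40 at an unadjusted p below 0.05 in CCL19-KI mice without ligature, 6 in WT mice with ligature and 5 in CCL19-KI mice with ligature (8.32%, 11.7% and 23% of all genes were). Over all genes 0%, 0.207% and 4.92% were called there. The signs did not lean upward in these settings, with 27, 27 and 20 of 40 negative and medians of -0.085, -0.13 and -0.012.

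**Figure D5:**
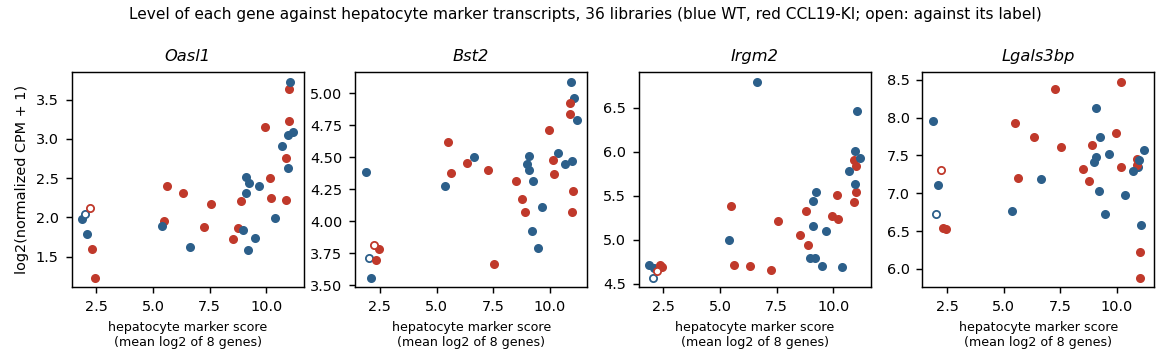
Log2(normalized CPM + 1) of Oasl1, Bst2, Irgm2 and Lgals3bp against the hepatocyte marker score (mean log2 of 8 genes) in 36 libraries; WT is blue, CCL19-KI red and open points are libraries against their label. Oasl1, Bst2 and Irgm2 run upward with the score (r = 0.61, 0.59 and 0.57), Lgals3bp does not (r = 0.06), and replicate 3 of ND WT ligature stands above the rest for Irgm2.

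The hepatocyte score ran with some ISGs and not with others across the 36 libraries. Pearson's r was 0.61 for Oasl1, 0.59 for Bst2, 0.58 for Stat2, 0.57 for Irgm2 and 0.52 for both Usp18 and Irgm1, but -0.41 for Oas2, -0.40 for Ifit3 and 0.06 for Lgals3bp. The libraries share their groups, so these are descriptions with n = 36 and no test. Markers of immune cells ran little with the mean ISG level, at r = 0.09 for macrophages, 0.14 for dendritic cells, 0.11 for T and NK cells and 0.06 for B cells. Plasmacytoid dendritic cells had 0.31 and adipocytes -0.31. Markers of other tissues reached as much, at 0.325 for kidney tubules and 0.285 for hepatocytes. Those of epididymal epithelium, skeletal muscle and smooth muscle were negative (-0.0966, -0.131 and -0.175). Their part in the ISG values was not tested.

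Between 60% HFD and 40% HFD, 0 of 40 ISGs were called on average in limma or edgeR, with 4 of 40 at an unadjusted p below 0.05 (13.2% of all genes were), and 0.745% of all genes were called. The largest differences were 0.44 for Lgals3bp, 0.43 for Rsad2, 0.36 for Usp18, 0.30 for Isg15 and 0.29 for Oas1a, and the intervals of the 40 reached no higher than 0.87 and no lower than -0.60. In the single settings 0 of 40 passed in either test in all 4, with 0, 0, 2 and 1 of 40 at an unadjusted p below 0.05 in WT and CCL19-KI mice without and WT and CCL19-KI mice with ligature (6.02%, 26.5%, 5.38% and 5.36% of all genes were). Over all genes 0%, 9.53%, 0% and 0% were called there. Whether the knock-in or ligature effects themselves differed was tested in 5 comparisons of effects (genotype by ligature, genotype by each HFD and ligature by each HFD). None of the 200 tests over the 40 ISGs passed in limma or edgeR. At an unadjusted p below 0.05 there were 16 (8%, against 13.6% of all genes). Each test averaged over the remaining factor, which dilutes a pattern of 1 setting alone. The genotype median under 40% HFD was -0.41 without but 0.026 with ligature. The ligature median under 40% HFD was -0.43 in WT but 0.016 in CCL19-KI mice. Whether such a pattern differs between diets cannot be read from these tests. Over all genes 0.0975% of these tests were called, at 0.0056% for genotype by ligature, 0.476% and 0% for genotype by 60% HFD and 40% HFD, and 0% and 0.0056% for ligature by the same diets. The largest was the ligature effect on Oasl2 under 40% HFD minus that on ND, at -1.27 ± 0.38 (adjusted p = 0.23, limma). Over all pairwise comparisons the ISGs were called in 3 of 240 tests for genotype (1.25%, all genes 5.73%), 4 of 240 for ligature (1.67%, all genes 2.29%) and 8 of 480 for diet (1.67%, all genes 4.14%).

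The rest of the interferon pathway was read from lists of 110 further genes, of which 100 were analysed here and 98 tested. Of 12 listed interferon genes, Ifnk and Ifnz were analysed here and had at most 9 and 12 reads in a library, below the filter, and the others were not analysed here. Between genotypes 0 of 98 passed in limma or edgeR (10 at an unadjusted p below 0.05, where 16.9% of all genes were). With ligature, where 0.325% of all genes were called, 2 of 98 rose, Ifngr1, a chain of the interferon gamma receptor (161 against 107, 0.58 ± 0.11, adjusted p = 0.017, limma), and Ifi205, a DNA-binding protein of the Ifi200 family (73.7 against 41.3, 0.84 ± 0.18, adjusted p = 0.028).

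With 60% HFD against ND 5 of the 98 rose and 4 fell (9.18%, all genes 18.6%). The kinase Jak1 rose (257 against 212, 0.29 ± 0.06, adjusted p = 0.0035, limma), as did B2m, the light chain of MHC class I (1515 against 1043, 0.58 ± 0.13, adjusted p = 0.0045), and Ptpn6, a phosphatase that restrains JAK signalling (0.43 ± 0.15, adjusted p = 0.046). Among those that fell were Ifnlr1, the receptor of interferon lambda (-0.48 ± 0.16, adjusted p = 0.043), Gbp5 (-0.60 ± 0.16, adjusted p = 0.014) and Isg20, an exonuclease (-0.51 ± 0.13, adjusted p = 0.0095). After the same covariate was added Jak1, B2m and Isg20 were called, while Ifnlr1 was -0.21 (adjusted p = 0.46), Gbp5 -0.48 (adjusted p = 0.098) and Ptpn6 0.32 (adjusted p = 0.25). Ptpn6 was also lost without the 2 libraries (adjusted p = 0.11). With 40% HFD, where 9.21% of all genes were called, 2 of 98 rose, Jak1 (0.22 ± 0.06, adjusted p = 0.030) and the GTPase Iigp1 (143 against 66.7, 1.33 ± 0.39, adjusted p = 0.032). Another 2 fell, Ptpn2, a phosphatase that acts on JAK1 (-0.28 ± 0.07, adjusted p = 0.015), and Ifit3b, which shares sequence with Ifit3 (-0.34 ± 0.11, adjusted p = 0.049). With the hepatocyte score as a covariate Iigp1 was 0.22 (adjusted p = 0.83), Ifit3b -0.099 (adjusted p = 0.75) and Jak1 0.25 (adjusted p = 0.095), and Ptpn2 alone of the 4 was called. Ifit3b was also lost without the 2 libraries (adjusted p = 0.070). Between 60% HFD and 40% HFD 0 of 98 passed in limma or edgeR, with 7 at an unadjusted p below 0.05 (13.2% of all genes were).

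The genes sit in clusters, and reads of near copies could have been split between them. On the GRCm38 annotation 8 of the 40 ISGs lie on chromosome 11, where Igtp (58199556 to 58207591) overlaps Irgm2 (58199618 to 58222782) on the same strand, and 5 lie on chromosome 5. There Oas2 (120730333 to 120749853) and Oas3 (120753098 to 120777661) adjoin, and Oas1a (120896256 to 120907521) lies farther along. Oas1a shares 47.6% of its 75-base words with Oas1g and Ifit3 shares 41.1% with Ifit3b, so their values are uncertain. Gbp7 shares 11.3%, Rtp4 10.5%, Igtp 7.80% and Ifit1 5.19%. Irgm2 shares 4.78%. Lgals3bp, Usp18, Dhx58, Oasl1, Oasl2 and Bst2, the genes called for a diet on average, share none, although Dhx58, Oasl1 and Usp18 have an antisense neighbour, which the directional libraries can tell apart only if strand was used in counting.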

How the data were processed

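RNA of 36 eWAT samples was depleted of ribosomal RNA, made into directional libraries and sequenced in pairs by the authors, who trimmed reads with Trimmomatic 0.38, mapped them with Bowtie2 within RSEM 1.3.0 and normalized with edgeR. The deposited signal values are CPM after that normalization. The submitters' processing notes name GRCm39 and the study's methods name mm10. Positions here are from GENCODE M21 (GRCm38) and were matched by gene identifier. Dividing each value by the worth of 1 read in its library (0.0472 to 0.0834) gave whole reads throughout (100% within 0.01).

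The 17852 of 24750 genes that reached 1 in no fewer than 3 libraries were fitted with limma 3.58.1 (R 4.3.3) on log2(value + 1), a scale that understates changes of low genes, with 12 group means and an intensity trend. P-values were adjusted with Benjamini-Hochberg over all genes tested, and an adjusted p below 0.05 was a call. Fold changes are given as log2 ± SE with 95% intervals. edgeR 4.0.16 was run on the recovered reads. Scripts were tested on simulated data. The labels give 3 separate mice in each group, and p-values measure the spread between these mice. The series' design text mentions ligature for all mice, and the sample labels, which name it for 18, were followed.

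The ISGs, pathway lists and marker lists were chosen with earlier results of these data known. Called genes were named (up to 10 in an averaged comparison and 5 in a pairwise one). Where fewer than 5 passed in an averaged comparison, the 5 largest differences were given. In the pathway lists the 3 called genes with the smallest adjusted p of each list were named, and the 8 genes closest to the ISG level by Pearson correlation. Gene values beyond this rule, such as those of the GTPases in 1 ligated mouse and of Irf7, Irf9, Isg15, Usp18, Irgm1 and Ifi27 under 40% HFD, were chosen after the values were seen. Alternatives were other pseudocounts, filters, scalings, weights and call criteria, a replicate block, edgeR and leaving out each library. Fits without the 2 libraries against their label and with the hepatocyte score were added after seeing the data.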

Additional observations from a re-analysis of the deposited data

How the results depend on the processing

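Members called on average were 0 between genotypes, 1 for ligature, 5 for 60% HFD, 1 for 40% HFD and 0 between the high-fat diets, and 3, 4, 8 and 0 summed over the pairwise genotype, ligature and diet comparisons and the differences of effects. The ligature sum became 2 with a pseudocount of 0.1, and without a filter the genotype and diet sums became 1 and 5. A mean of at least 5 left ligature at 0, since Mx1 was then not tested, with a sum of 1. Quantile normalization gave 2 for 40% HFD, and edgeR gave 5 for the genotype sum. Sample weights gave averages of 4, 14, 12, 9 and 4 (10%, 35%, 30%, 22.5% and 10% of the ISGs, 26%, 15.6%, 39%, 37.3% and 6.5% of all genes) and sums of 21, 23, 79 and 28 (8.75%, 9.58%, 16.5% and 14%, all genes 15.8%, 13.2%, 19.5% and 18.3%), and the study's criteria (unadjusted p of at most 0.05, ratio of 1.5) gave 2 for 60% HFD, 0 for 40% HFD and sums of 19, 23, 41 and 10 (7.92%, 9.58%, 8.54% and 5%, all genes 10%, 9.74%, 11.7% and 7.9%). Without the 2 libraries against their label the genotype average was 1 and the sum of differences 1. With the hepatocyte score, ligature was 4, 60% HFD 1 and 40% HFD 0, with sums of 0, 2 and 2. With both changes the averages were 2 for genotype, 4 for ligature, 3 for 60% HFD and 0 for 40% HFD, with sums of 5 for genotype, 4 for diet and 6 for differences. Oasl1 between genotypes on ND without ligature turned to -0.041 with the score and to -0.054 with both changes. The causes were not tested.

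Leaving out 1 library gave 0 to 0, 0 to 2, 4 to 9, 0 to 4 and 0 to 0 on average and sums of 0 to 9, 0 to 5, 2 to 17 and 0 to 3. The share of all genes called was not taken in these fits, so a changed count is not a result about the ISGs. Without ND WT ligature replicate 3, 60% HFD called 9 and 40% HFD called 4. Without ND CCL19-KI replicate 1 the sums were 9, 17 and 3 for genotype, diet and differences, and without ND WT ligature replicate 1 the ligature sum was 0. Without 60% HFD WT replicate 2 the genotype sum was 0, and the diet sum was 2 without ND CCL19-KI ligature replicate 2 or 60% HFD CCL19-KI ligature replicate 1. Oasl1 for 60% HFD lost its call without 10 of the 36 libraries. Lgals3bp, Oasl2, Dhx58 and Usp18 kept theirs under each of the 36. No median of the list moved by more than 0.195, the spread between replicates. That spread was larger than the medians themselves (-0.10, -0.10, 0.09, 0.05 and 0.01), so this shows little. The medians ran from -0.13 to -0.04 for genotype, -0.15 to -0.05 for ligature and 0.04 to 0.17 for 60% HFD. For 40% HFD they ran from 0.003 to 0.15 and between the high-fat diets from -0.03 to 0.04.

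Same-numbered libraries of different groups did not vary together on average (correlation of deviations -0.663 to 0.71, median -0.0153, n = 198, against a median of 0.0172 for different numbers). Whether a number marks a batch shared by some of the groups was not tested. With the replicate block the ligature sum was 2, and the other counts stayed within 1.5 times. No setting moved the median of all genes by over 0.1. Mx1 (at least 5 reads), Mx2 and Isg15 were the ISGs that depth limits most.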
